A study of Homo sapiens with 6 samples.

Results

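The cytochrome P450 genes of the human genome were examined in Huh7 cells, a hepatocellular carcinoma line, after knockdown of CTSV, the gene of the lysosomal protease cathepsin V. Members were all gene names of the form CYP, number, letter, number, 1 entry per name, without the sterol enzyme CYP51A1 and without names of pseudogenes that end in P. The members described were 31 of 27394 gene names in the count table. The knockdown group was 3 libraries of Huh7 cells with a short hairpin RNA (shRNA) against CTSV, and the control group was 3 libraries of Huh7 cells with a control shRNA, whose genotype is labelled WT. Both groups grew in DMEM with fetal bovine serum and antibiotics, and mRNA libraries were prepared using an NEBNext Ultra II kit. The sources used here do not say how many shRNAs or clones were used. The labels do not tie the replicates to separate cultures. The p-values therefore set the difference between groups only against the spread of these libraries within groups, which may be technical.

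P450 enzymes are haem proteins that insert 1 oxygen atom into a substrate, with electrons passed on by the reductase POR in the endoplasmic reticulum or by ferredoxin in mitochondria. In liver, the CYP1 to CYP3 families oxidise drugs and other foreign compounds, and other families make bile acids and steroids, trim fatty acids and eicosanoids, or activate and clear vitamins A and D. Many of the drug-metabolising genes are induced by ligand-activated receptors, among them PXR (gene NR1I2), CAR (NR1I3) and the aryl hydrocarbon receptor (AHR), and depend on hepatocyte factors such as HNF4A. Hepatoma lines are known to express many of them at far lower levels than hepatocytes in the liver.

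Library totals lay between 16258803 and 18106207 counts. CTSV itself had 304, 264 and 296 counts in knockdown libraries, against 755, 740 and 658 in control libraries. All 10 hepatocyte markers passed the count filter, and 6 rose and 1 fell (TTR), where 18.7% of all genes tested rose and 21.6% fell. Their summed level was 41949 to 43013 CPM (counts scaled to a common library size) in knockdown libraries and 34362 to 35063 CPM in control libraries. ALB, AFP and APOB held most of this sum, with group means of 13378, 13586 and 9669 CPM in knockdown and 11482, 9999 and 8410 CPM in control libraries. Of the markers of other cell types, 7 of 7 enterocyte genes in the table rose, with a summed level of 460.5 to 470.8 CPM in knockdown libraries and 275.5 to 284.8 CPM in control libraries. VIL1 held most of the enterocyte sum, with group means of 351.3 CPM in knockdown and 253.1 CPM in control libraries. Cholangiocyte markers summed to 184.4 to 199.8 CPM in knockdown and 198.2 to 219.4 CPM in control libraries, and of 5 tested EPCAM rose and SPP1 and SOX9 fell. Endothelial markers (0 of 2 called in edgeR, 0 at an unadjusted p under 0.05) summed to 19.6 to 21.8 and 18.1 to 23.5 CPM, and fibroblast and stellate markers (2 of 4 rose) to 61.6 to 69.0 and 46.4 to 52.6 CPM. Of 7 macrophage markers only CD14 was in the table, at 1.82 to 2.73 CPM in knockdown and 2.19 to 3.13 CPM in control libraries. More gene names had at least 1 count in knockdown libraries (22698 to 22933) than in control libraries (21779 to 22078). The part of these shifts in the P450 results was not tested. In bulk libraries, fewer cells of a type and less RNA per cell cannot be told apart.

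The called rises were of drug-metabolising and fatty acid P450 genes, but their number is not a basis for comparing enzyme classes. Of the 31 members, 25 passed the filter on low counts, and among these 9 rose, 5 fell and 11 were not called at an adjusted p under 0.05. The rises were CYP3A5, CYP2C8, CYP2C19, CYP2A6 and CYP2D6 among xenobiotic enzymes and CYP4V2, CYP2J2, CYP4F12 and CYP4F3 among fatty acid enzymes. The falls were CYP1A1, CYP1B1 and CYP2B6 among xenobiotic enzymes, CYP39A1 of bile acid synthesis and the orphan enzyme CYP20A1. Over all 15968 genes tested, 40.3% were called, 18.7% as rises and 21.6% as falls. Members with a mean below 10 CPM numbered 14, of which 5 rose and 1 fell, where 21.7% of all genes at that level were called, 17.1% as rises and 4.58% as falls. The other 11 members, at 10 CPM or more, had 4 rises and 4 falls, where 53.1% of genes at that level were called, 19.7% as rises and 33.4% as falls. The median log2 fold change of the 25 members was 0.31, against 0.02 for all genes tested, 0.26 for those below 10 CPM and -0.07 for those at or above it. Of the members that passed, 5 reached the count minimum in all knockdown libraries but not in all control libraries, 2 of them called rises (CYP2C8 and CYP2C19), and 0 did so the other way round. The members that passed are not the whole family.

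**Figure D1:**
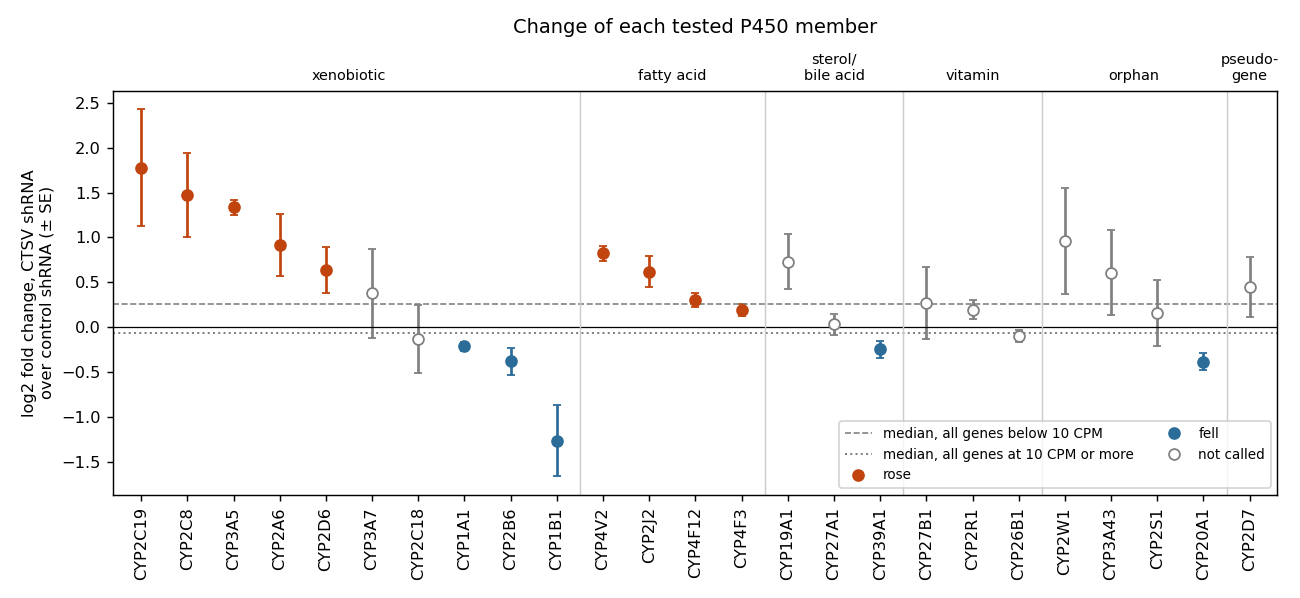
Log2 fold change, CTSV shRNA over control shRNA, of the 25 tested members by enzyme class, with standard errors (3 libraries per group). Filled points were called at an adjusted p under 0.05: 9 rose and 5 fell. Dashed and dotted lines mark the median of all tested genes below 10 CPM (0.26) and at 10 CPM or more (-0.07).

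By class, 5 of 10 tested xenobiotic enzymes rose and 3 fell (median log2 fold change 0.51), and 4 of 4 fatty acid enzymes rose (median 0.46). Of 3 sterol and bile acid enzymes, 0 rose and 1 fell (median 0.03). Of 3 vitamin enzymes, 0 rose and 0 fell in the edgeR test (median 0.20), 0 had an unadjusted p under 0.05, and DESeq2 called 0. Of 4 orphan enzymes, 0 rose and 1 fell (median 0.38). Some members reached the count minimum in all knockdown libraries but not in all control libraries. These were CYP2C8, CYP2C19 and CYP3A7 of the xenobiotic class and CYP2W1 and CYP3A43 of the orphan class. Medians and counts of rises in these 2 classes therefore lean towards rises and are not a basis for comparing classes. The pseudogene CYP2D7, which the name rule admits, was not called. In 12 of the 25 tested members the 2 groups did not overlap in normalised level, as was so for 49.2% of all genes tested. All 12 were among the 14 called members, and the called members with overlap were CYP2B6 and CYP39A1. The counts were lower in fits that left out a library: 5 members rose without control replicate 1, without control replicate 2 or without knockdown replicate 2, and 3 fell without control replicate 1 or 2. Rises among xenobiotic enzymes numbered 1 without control replicate 2, 2 without control replicate 1, knockdown replicate 1 or knockdown replicate 2, and 3 without control replicate 3 or with no filter on low counts. Their falls numbered 1 without control replicate 2.

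**Figure D2:**
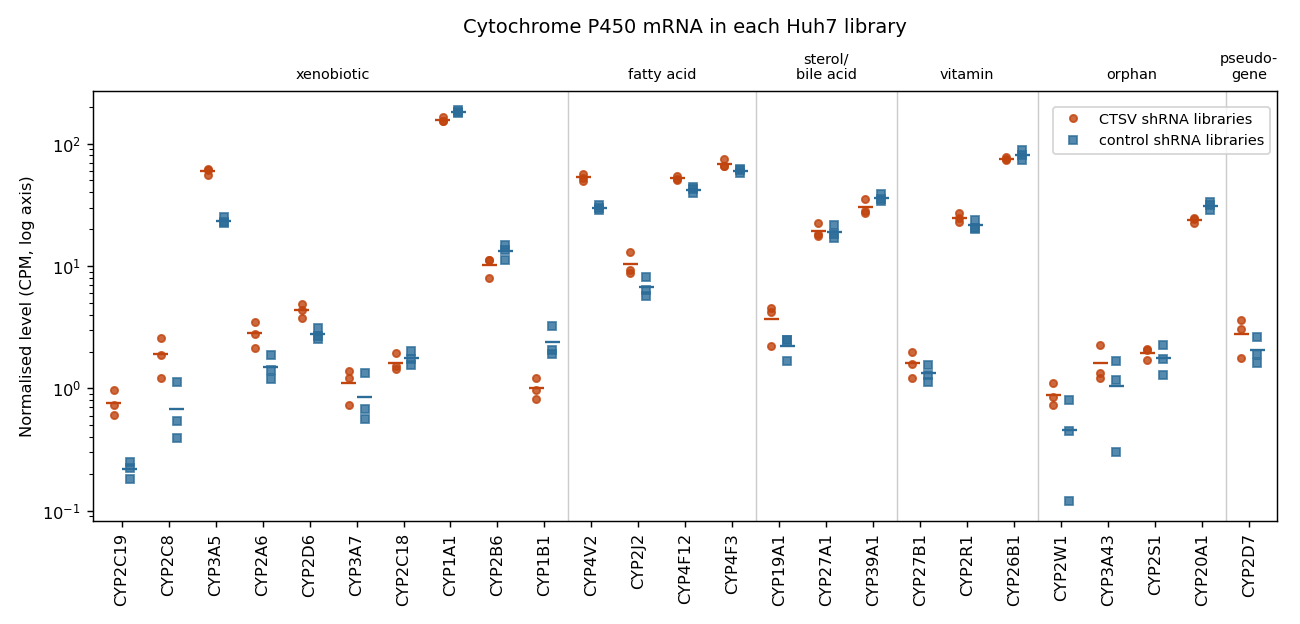
Normalised level (CPM, log axis) of the 25 tested members in each library, with circles for the 3 CTSV shRNA libraries, squares for the 3 control shRNA libraries and bars for group means. CYP1A1 is the highest member in both groups, and CYP3A5 shows a clear gap between groups.

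CYP3A5, which oxidises a wide range of drugs including tacrolimus, had the best supported rise. Its level was 55.5, 60.3 and 61.7 CPM in knockdown libraries, against 22.4, 24.9 and 23.0 CPM in control libraries. The lowest knockdown library was more than 2 times as high as the highest control library. The change was 2.53-fold (log2 fold change 1.34, SE 0.084; by edgeR's quasi-likelihood test, adjusted p = 2.1e-15). The gene (ENSG00000106258; chr7:99648194-99679998, minus strand, hg38) is at 1 end of the CYP3A cluster. Its neighbours were near the detection limit. CYP3A4, the main drug-metabolising P450 of adult liver, had 4, 9 and 4 counts in knockdown libraries and 6, 4 and 7 in control libraries, and did not pass the filter. CYP3A7, the fetal liver form, had 23, 12 and 22 counts in knockdown libraries and 12, 22 and 9 in control libraries (log2 fold change 0.38, SE 0.497, not called). CYP3A43, an orphan of the same cluster, had 20, 22 and 41 counts in knockdown libraries and 21, 5 and 27 in control libraries (0.61, SE 0.471, not called). The difference between CYP3A5 and its neighbours was not tested.

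Because 1 member of this pair rose and the other stayed near the detection limit, the promoters of CYP3A5 and CYP3A4 are shown, 250 bases before the RefSeq start (GRCh38.p14), 5′ to 3′ on the gene's strand. Capitals mark matches, on either strand, to the nuclear receptor half-sites AGTTCA and AGGTCA and to the TATA box letters TATAAA. The windows are chr7:99679997-99680246 and chr7:99784185-99784434, both on the minus strand.
CYP3A5: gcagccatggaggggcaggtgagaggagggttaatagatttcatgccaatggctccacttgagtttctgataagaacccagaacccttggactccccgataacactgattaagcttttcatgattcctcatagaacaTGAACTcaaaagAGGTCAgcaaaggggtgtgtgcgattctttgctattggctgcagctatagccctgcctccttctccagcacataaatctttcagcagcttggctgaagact
CYP3A4: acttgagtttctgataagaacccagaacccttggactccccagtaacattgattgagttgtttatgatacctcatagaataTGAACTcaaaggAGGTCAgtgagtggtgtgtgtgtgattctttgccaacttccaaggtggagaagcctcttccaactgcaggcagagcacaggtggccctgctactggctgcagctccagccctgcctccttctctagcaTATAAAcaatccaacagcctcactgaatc
Both hold the half-sites as an everted repeat with a gap, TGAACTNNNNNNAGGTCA, which was searched on both strands after the sequences had been read. It starts 113 bases before the start of CYP3A5 and 169 bases before that of CYP3A4. It overlaps both half-sites by construction, and 3 of 35116 RefSeq promoter windows of the same length hold it, 0.00854%. TATAAA stands 29 bases before the start of CYP3A4 and has no match in the CYP3A5 window, and 10.7% of all windows hold it. The half-sites alone are common, with AGTTCA in 8.80% and AGGTCA in 12.1% of all windows. A match is a description of letters only.

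Of the CYP2C genes described, CYP2C8 and CYP2C19 rose and CYP2C18 was not called. All 3 knockdown libraries of CYP2C8 and CYP2C19 reached the filter's count minimum, against 1 and 0 of the control libraries. Both genes thus passed the filter through the group where they were high, and their calls are weak support for a rise. CYP2C8, which oxidises paclitaxel and arachidonic acid, had 43, 20 and 34 counts in knockdown libraries, against 7, 9 and 18 in control libraries. The lowest knockdown library was close to the highest control library (1.21 against 1.12 CPM). Its log2 fold change was 1.47 (SE 0.471, adjusted p = 0.0116 in edgeR), which was not called without control replicate 1 (0.0787), control replicate 2 (0.0505) or knockdown replicate 1 (0.0966). CYP2C19, which activates clopidogrel, had 16, 12 and 11 counts in knockdown libraries and 4, 3 and 4 in control libraries. Its log2 fold change of 1.78 (SE 0.649, adjusted p = 0.0269 in edgeR) was called in 1 of 6 fits that left out a library, the one without knockdown replicate 3 (highest adjusted p 0.129, without knockdown replicate 1), and was not called with no filter on low counts (0.0959). CYP2C18, at 25, 32 and 26 counts in knockdown libraries and 36, 26 and 28 in control libraries, had a log2 fold change of -0.13 (SE 0.377), and its difference from CYP2C8 and CYP2C19 was not tested. Genes of this cluster have similar transcripts, and the sources used here do not say how reads with several matches were handled. CYP2C19 also shares 478 exonic bases with the pseudogene MTND4P19 on the opposite strand, which had 47 counts over all 6 libraries against 50 for CYP2C19. It shares 1464 with AL583836.1 on the same strand, a gene without an entry among the counts. Strand use in counting is not stated, so reads of these genes cannot be told apart. The low CYP2C19 counts are therefore uncertain.

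Upstream windows are shown of CYP2C19, CYP2C8 and CYP2A6, the members called as rises whose windows hold CAAAGTCC. That of CYP1A1, which fell, is shown beside them. Capitals mark CAAAGTCC, the core of sites bound by HNF4, the AHR core GCGTG and TATAAA, each searched on both strands. The windows are chr10:94762431-94762680 (plus strand), chr10:95069498-95069747, chr19:40850448-40850697 and chr15:74725529-74725778 (minus strand).
CYP2C19: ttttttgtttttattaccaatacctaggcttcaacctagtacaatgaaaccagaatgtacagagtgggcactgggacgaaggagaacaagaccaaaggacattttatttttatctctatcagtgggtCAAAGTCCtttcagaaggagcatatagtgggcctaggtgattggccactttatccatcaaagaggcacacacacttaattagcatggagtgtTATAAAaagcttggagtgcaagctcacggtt
CYP2C8: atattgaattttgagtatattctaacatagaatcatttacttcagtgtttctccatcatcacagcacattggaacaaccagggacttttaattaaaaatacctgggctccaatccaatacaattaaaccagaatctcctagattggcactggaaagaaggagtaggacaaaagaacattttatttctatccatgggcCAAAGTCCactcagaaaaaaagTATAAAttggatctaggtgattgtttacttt
CYP2A6: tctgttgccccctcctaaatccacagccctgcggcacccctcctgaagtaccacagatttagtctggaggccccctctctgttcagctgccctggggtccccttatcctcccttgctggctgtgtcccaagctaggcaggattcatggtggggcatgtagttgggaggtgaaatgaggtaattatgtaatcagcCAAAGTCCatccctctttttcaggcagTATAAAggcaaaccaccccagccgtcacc
CYP1A1: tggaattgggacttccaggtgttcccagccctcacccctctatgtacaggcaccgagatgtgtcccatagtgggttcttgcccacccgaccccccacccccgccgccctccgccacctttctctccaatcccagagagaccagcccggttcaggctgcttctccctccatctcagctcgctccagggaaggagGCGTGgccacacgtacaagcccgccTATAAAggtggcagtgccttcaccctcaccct
CAAAGTCC starts 123 bases before the start of CYP2C19, 53 before that of CYP2C8 and 56 before that of CYP2A6. It was found in 6 of 34 windows of P450 members, which cover 24 member genes, and in 1.02% of all windows. It was searched after the sequences had been read, and the other genes with it were CYP2A7, CYP2B6 and CYP2R1, of which CYP2B6 fell. The other members that rose and had a window were CYP3A5, CYP4V2, CYP2J2 and CYP4F3, and none of these windows holds CAAAGTCC. GCGTG lies 57 bases before the start of CYP1A1 and is found in 6 of 34 windows of P450 members and in 32.2% of all windows. The other members with it were CYP20A1, CYP26C1, CYP2A7, CYP2J2 and CYP2W1, of which CYP2J2 rose and CYP20A1 fell.

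The remaining xenobiotic rises were small or rested on few counts. CYP2A6, the main nicotine oxidase, had 58, 46 and 39 counts in knockdown libraries, against 25, 20 and 30 in control libraries. The groups did not overlap, and the log2 fold change was 0.91 (SE 0.346, adjusted p = 0.0333 in edgeR). It was not called without control replicate 1 or 2 or without knockdown replicate 1 or 2 (highest adjusted p 0.167). CYP2D6, which metabolises codeine and many antidepressants, had 62, 72 and 89 counts in knockdown libraries and 56, 42 and 43 in control libraries. Its log2 fold change was 0.64 (SE 0.254, adjusted p = 0.0421 in edgeR), and it was called in 6 of 13 alternatives. It was not called without control replicate 2 or 3 or knockdown replicate 2 or 3 (highest adjusted p 0.168), with no filter on low counts (0.0721), with the length offset (0.0547) or by DESeq2 (0.0517). The adjacent pseudogene CYP2D7 had 60, 50 and 32 counts in knockdown libraries and 34, 27 and 42 in control libraries (0.45, SE 0.331, not called). The transcripts of CYP2D6 and CYP2D7 are 96.0% identical over 1718 aligned bases, so the split of reads between them is uncertain, and the same holds for CYP2A6 and CYP2A7 (95.6% over 1761 bases).

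CYP1A1, CYP1B1 and CYP2B6 were lower in knockdown libraries. CYP1A1 and CYP1B1 oxidise polycyclic aromatic hydrocarbons and are classic AHR targets, while CYP2B6, which metabolises bupropion and efavirenz, is a classic CAR target. CYP1A1 (chr15:74719542-74725610, minus strand) was at 165, 152 and 153 CPM in knockdown libraries, against 176, 186 and 182 CPM in control libraries. It fell to 0.863 of the control level (log2 fold change -0.21, SE 0.0518, edgeR's quasi-likelihood test, adjusted p = 0.0011). CYP1B1 had 20, 16 and 15 counts in knockdown libraries and 34, 54 and 33 in control libraries. Every knockdown library was below every control library, and the log2 fold change was -1.26 (SE 0.397, adjusted p = 0.0103 in edgeR). Without control replicate 2, the highest control library, it was -0.99 and not called (adjusted p = 0.0999). CYP1B1 shares 678 exonic bases with an antisense gene, CYP1B1-AS1, which had 39 counts over all 6 libraries, and 96 with RMDN2 on the opposite strand, which had 749 counts against 172 for CYP1B1. Strand use in counting is not stated, so reads of these genes cannot be told apart. CYP2B6 was at 11.1, 11.3 and 7.98 CPM in knockdown libraries and 13.5, 14.8 and 11.1 CPM in control libraries. The groups overlapped, and the log2 fold change was -0.38 (SE 0.15, adjusted p = 0.0417 in edgeR), not called without control replicate 1 or 2 or without knockdown replicate 3, nor by DESeq2 (highest adjusted p 0.281).

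**Figure D3:**
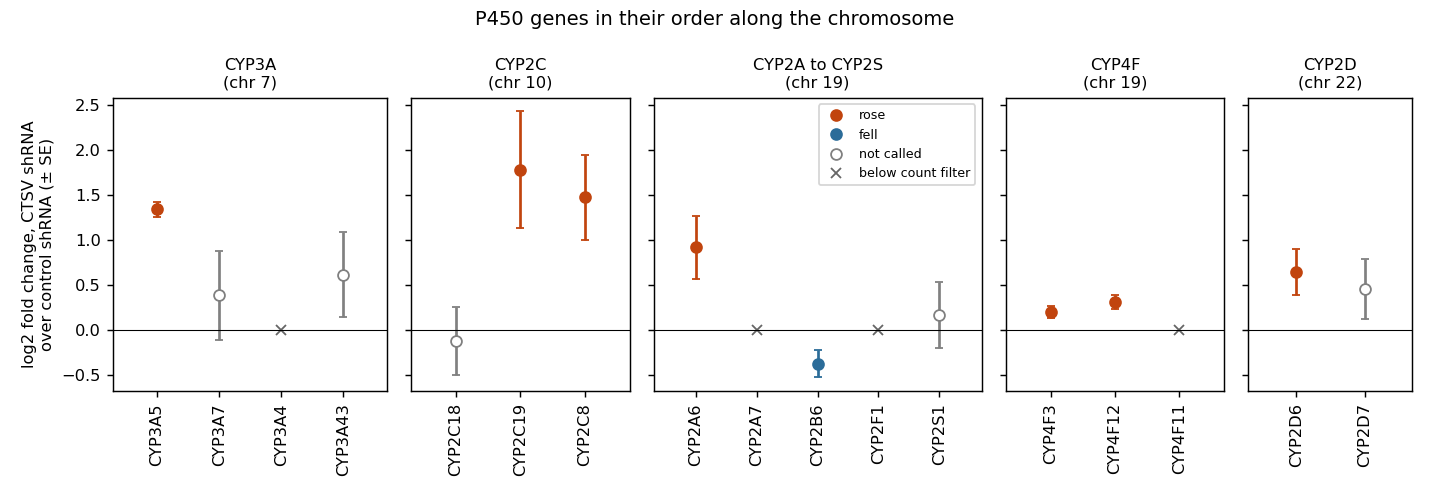
Log2 fold change with standard error of the members in 5 gene clusters, in their order along the chromosome (3 libraries per group). In the CYP2C cluster 2 of the 3 members drawn rose, in the CYP3A cluster 1 of 4, and in the cluster from CYP2A6 to CYP2S1 CYP2A6 rose and CYP2B6 fell. Crosses mark members below the count filter, for which no fold change was fitted.

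Members were also listed by gene cluster, and differences within a cluster were not tested. The CYP3A cluster spans 217.9 kb of chromosome 7 and the CYP2C cluster 385.9 kb of chromosome 10. On chromosome 19, the stretch from CYP2A6 to CYP2S1 spans 364.0 kb and holds a rise (CYP2A6), a fall (CYP2B6), CYP2S1 that was not called, and CYP2A7 and CYP2F1 below the filter. CYP2A7 had 15, 2 and 3 counts in knockdown libraries and 1, 3 and 2 in control libraries. CYP2F1, a lung enzyme, had 0, 4 and 0 counts in knockdown libraries and 0 in each control library.

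All 4 tested fatty acid enzymes rose. CYP4V2 (chr4:186191520-186213456, plus strand), an omega-hydroxylase mutated in Bietti crystalline dystrophy of the retina, was at 56.6, 52.3 and 49.9 CPM in knockdown libraries and 31.2, 29.9 and 28.6 CPM in control libraries. The groups were far apart, with a 1.77-fold change (log2 fold change 0.82, SE 0.0824, edgeR's quasi-likelihood test, adjusted p = 3.0e-10). CYP2J2, the main arachidonic acid epoxygenase of the heart, was at 8.83, 13.0 and 9.30 CPM in knockdown libraries and 8.19, 5.66 and 6.35 CPM in control libraries. Between groups the log2 fold change was 0.62 (SE 0.176, adjusted p = 0.0046 in edgeR), and it was not called without knockdown replicate 2, the highest library (0.42, adjusted p = 0.0943). CYP4F12 was at 51.5, 54.4 and 50.6 CPM in knockdown libraries, against 44.5, 39.7 and 42.2 CPM in control libraries (log2 fold change 0.31, SE 0.0769, adjusted p = 0.0014 in edgeR). CYP4F3, which inactivates leukotriene B4, was at 75.3, 65.2 and 65.3 CPM in knockdown libraries, against 60.4, 61.4 and 57.9 CPM in control libraries. Its log2 fold change was 0.19 (SE 0.0702, adjusted p = 0.0251 in edgeR), with no call without control replicate 1 or 3 or knockdown replicate 1 (highest adjusted p 0.234). With no filter on low counts, a length offset or all deposited entries, it was not called either (0.0560, 0.130 and 0.0659). CYP4F11 stayed below the filter, with 0, 0 and 8 counts in knockdown libraries and 5, 7 and 1 in control libraries.

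Of the tested sterol and bile acid enzymes, CYP39A1 fell and CYP27A1 and CYP19A1 were not called. CYP39A1, which hydroxylates oxysterols on the way to bile acids, was at 28.0, 27.1 and 35.5 CPM in knockdown libraries, against 38.7, 33.7 and 35.1 CPM in control libraries. Knockdown replicate 3 lay within the control range, and the log2 fold change was -0.25 (SE 0.0978, adjusted p = 0.0426 in edgeR). This fall was not called by DESeq2 (0.0717), nor without control replicate 1 or 3 or knockdown replicate 1 or 2 (highest adjusted p 0.226). CYP27A1, the mitochondrial side-chain hydroxylase of the acidic bile acid route, was at 22.3, 18.2 and 17.5 CPM in knockdown libraries and 18.2, 21.5 and 16.9 CPM in control libraries. The groups overlapped (log2 fold change 0.03, SE 0.119). CYP19A1, the aromatase that makes oestrogens, had 37, 69 and 83 counts in knockdown libraries and 30, 41 and 40 in control libraries. It missed the threshold (log2 fold change 0.73, SE 0.301, adjusted p = 0.0504 in edgeR). It was called without knockdown replicate 1 (0.98, adjusted p = 0.0093) and, in edgeR, among genes with a mean of at least 1 CPM (adjusted p = 0.0469). CYP17A1, of androgen synthesis, had 2 to 8 counts in knockdown libraries and 0 to 4 in control libraries and was not tested. Of 11 tested bile acid enzymes outside the P450 family, 0 rose and 0 fell in edgeR (median 0.00), 3 had an unadjusted p under 0.05, and DESeq2 called 1 lower.

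No vitamin enzyme was called. CYP26B1, which clears retinoic acid, was the second highest member, at 75.2, 77.4 and 73.6 CPM in knockdown libraries and 74.1, 88.2 and 80.2 CPM in control libraries. The ranges overlapped (log2 fold change -0.10, SE 0.066), and with an offset for gene length it was called in edgeR at -0.16 (adjusted p = 0.0359). CYP2R1, which carries out the first hydroxylation of vitamin D, had a log2 fold change of 0.20 (SE 0.106) at 24.7 ± 2.12 CPM in knockdown and 21.6 ± 2.07 CPM in control libraries (SD, n = 3 each). CYP27B1, which completes vitamin D activation in kidney, was at 1.60 ± 0.395 CPM in knockdown and 1.33 ± 0.224 CPM in control libraries (0.27, SE 0.405). It shares 107 exonic bases with METTL1, a gene that fell by 0.70. CYP26C1 had 0, 10 and 4 counts in knockdown libraries and 9, 4 and 0 in control libraries and did not pass the filter.

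Among orphan enzymes, whose main substrates are not settled, CYP20A1 (chr2:203238940-203305611, plus strand) fell. It was at 22.6, 24.8 and 24.3 CPM in knockdown libraries, against 33.0, 28.8 and 31.6 CPM in control libraries. The groups did not overlap (log2 fold change -0.38, SE 0.096, edgeR's quasi-likelihood test, adjusted p = 0.0015). CYP2S1 was at 1.96 ± 0.223 CPM in knockdown and 1.76 ± 0.477 CPM in control libraries (0.16, SE 0.368). CYP2W1 had 14, 12 and 20 counts in knockdown libraries and 8, 2 and 13 in control libraries (0.96, SE 0.590, not called).

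Levels of different members were compared as CPM per kilobase of annotated exons. The exons of all transcripts are joined, which can exceed the longest protein-coding transcript. For CYP3A5 the lengths are 6759 and 3320 bases, and for CYP4F12 5351 and 2044 bases. Ranks and shares of the pool therefore depend on the length used. The summed level of the 31 members was 141.9 ± 2.89 CPM per kb in knockdown and 139.2 ± 1.43 CPM per kb in control libraries (SD, n = 3 each). CYP1A1 had the highest level in both groups, 45.6 ± 2.03 CPM per kb in knockdown and 52.8 ± 1.5 in control libraries. It was followed by CYP26B1 at 15.0 ± 0.384 and 16.1 ± 1.42 CPM per kb. CYP3A5 had rank 6 in knockdown libraries, at 8.76 ± 0.482 CPM per kb, and rank 10 in control libraries, at 3.47 ± 0.195. Behind CYP26B1 in knockdown libraries came CYP4F3 (12.4 ± 1.05), CYP4F12 (9.75 ± 0.370) and CYP39A1 (9.71 ± 1.49 CPM per kb), of which the last 2 did not differ beyond their spread. Only 13 members reached 1 CPM per kb in both groups.

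**Figure D4:**
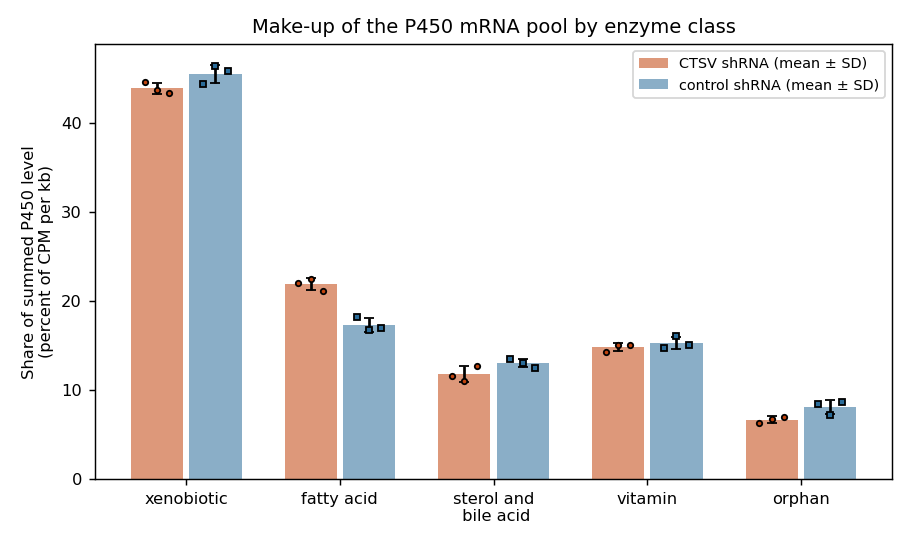
Share of the summed P450 level (percent of CPM per kb over 31 members) held by each enzyme class, as mean with SD bars and points for the 3 libraries of each group. The fatty acid share is 21.2% to 22.5% in CTSV shRNA libraries and 16.8% to 18.2% in control shRNA libraries, while the xenobiotic shares overlap. The pseudogene's share is not drawn.

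The make-up of this pool shifted while the xenobiotic shares of the groups overlapped. Xenobiotic enzymes held 43.9% ± 0.632 of the summed level in knockdown and 45.5% ± 1.01 in control libraries. Within it, CYP1A1 held 32.1% ± 0.784 of the pool in knockdown and 37.9% ± 0.920 in control libraries, and CYP3A5 6.18% ± 0.460 and 2.49% ± 0.119. Fatty acid enzymes held 21.9% ± 0.691 in knockdown and 17.3% ± 0.767 in control libraries, and orphan enzymes 6.72% ± 0.347 and 8.15% ± 0.797 (SD, n = 3 each). In both of these classes the groups did not overlap. These shares are descriptions, since the called members are part of them.

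Genes that supply P450 enzymes with electrons and genes of haem synthesis and turnover were counted beside them. Of 8 tested redox partners, 4 fell and 0 rose in edgeR (median log2 fold change -0.12), 5 had an unadjusted p under 0.05, and DESeq2 called 3 lower and 0 higher. Without knockdown replicate 2, 2 fell. Of all genes at 10 CPM or more, 33.4% fell and 19.7% rose. CYB5R3, the cytochrome b5 reductase, was at 78.8 ± 3.21 CPM in knockdown and 99.2 ± 5.05 CPM in control libraries, a log2 fold change of -0.33. CYB5B (-0.24) and the haem-binding protein gene PGRMC2 (-0.20) also fell, the last not called without knockdown replicate 2 (adjusted p = 0.0760 in edgeR). POR, the main electron donor of microsomal P450 enzymes, was at 97.5 ± 3.14 CPM in knockdown and 107.4 ± 3.83 CPM in control libraries (SD, n = 3 each). Its log2 fold change of -0.14 (SE 0.0574, adjusted p = 0.0488 in edgeR) was called in 1 of 6 fits without a library, the one without control replicate 3, and not by DESeq2 (0.0590). Of 12 genes of haem synthesis and turnover, 6 fell and 2 rose (median -0.24), where 21.6% of all genes tested fell and 18.7% rose. The list is not one of haem supply alone. Among its genes of haem breakdown, HMOX1 (-0.72), BLVRA (-0.28) and BLVRB (-0.59) fell and HMOX2 was not called. The rises were PPOX (0.62, adjusted p = 0.0015 in edgeR) and ALAD (0.18, adjusted p = 0.0457), both enzymes of haem synthesis. In 8 of 13 alternatives there was 1 rise, among them those without control replicate 2 or 3 or knockdown replicate 1 or 2. ALAS1, the rate-limiting enzyme of haem synthesis, was at 63.9 ± 1.54 CPM in knockdown and 82.8 ± 0.575 CPM in control libraries (log2 fold change -0.37, adjusted p = 8.1e-06 in edgeR). FECH, which inserts iron in the last step of haem synthesis, fell by 0.52, the biliverdin reductase gene BLVRB by 0.59 and UROD, an earlier step of the pathway, by 0.32 on the log2 scale.

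**Figure D5:**
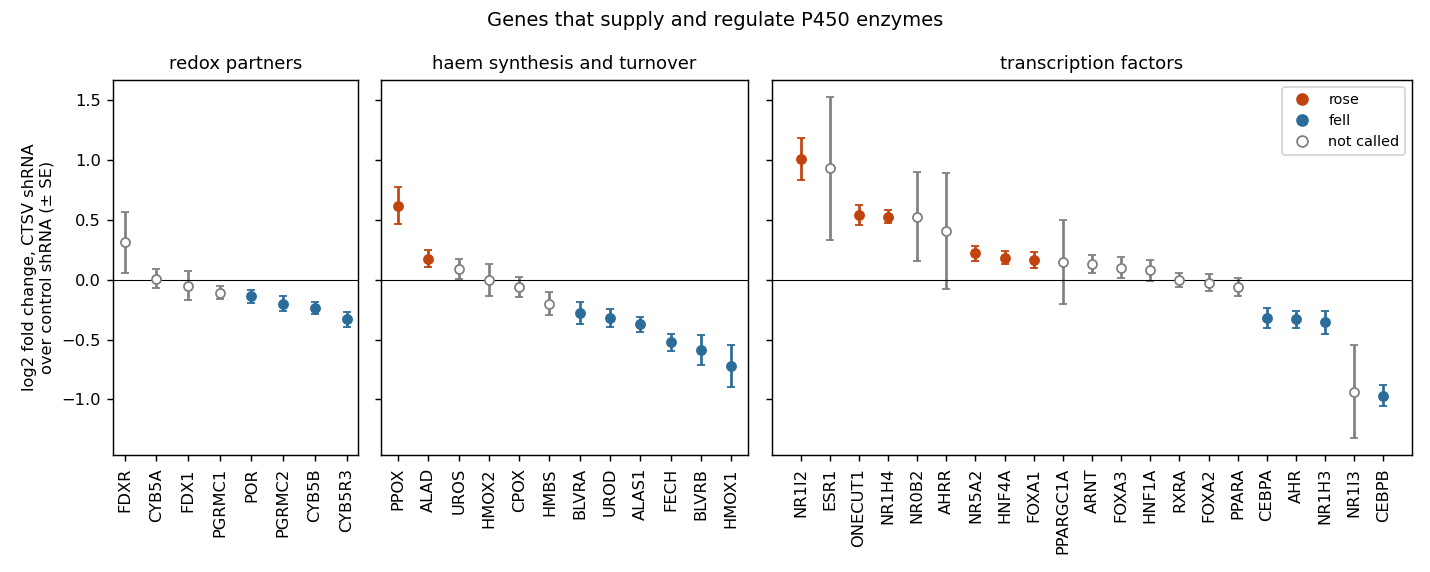
Log2 fold change with standard error of tested redox partners (8), genes of haem synthesis and turnover (12) and transcription factors that act on P450 genes (21), 3 libraries per group. Filled points were called at an adjusted p under 0.05. NR1I2 has the highest value and CEBPB the lowest, and 4 redox partners lie below 0 as called falls.

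Of 21 tested transcription factors known to act on P450 genes, 6 rose, 4 fell and 11 were not called (median log2 fold change 0.13). Over all genes tested, 18.7% rose and 21.6% fell. With an offset for gene length 3 of the factors rose, and without knockdown replicate 2 there were 4. NR1I2, which encodes PXR, was at 10.3 ± 1.36 CPM in knockdown and 5.10 ± 0.658 CPM in control libraries (log2 fold change 1.01, SE 0.175, edgeR's quasi-likelihood test, adjusted p = 1.4e-05). NR1I3, which encodes CAR, was at 1.26 ± 0.605 CPM in knockdown and 2.41 ± 0.333 CPM in control libraries, a log2 fold change of -0.94 that was not called (SE 0.390, adjusted p = 0.0533 in edgeR). AHR was at 89.3 ± 4.85 CPM in knockdown and 112.4 ± 14.5 CPM in control libraries (SD, n = 3 each) and fell by 0.33. The bile acid receptor gene NR1H4 (0.53) and the hepatocyte factor gene ONECUT1 (0.54) rose, and CEBPB (-0.97), a factor of the acute-phase response, fell. Whether these factors act on the members in these cells was not tested.

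In the authors' deposited table, 8 of the 31 members have an adjusted p under 0.05, and all 8 are among the 14 called here, 5 of them rises and 3 falls. The other 6, CYP2A6, CYP2C19, CYP2D6, CYP4F3, CYP2B6 and CYP39A1, have adjusted p-values of up to 0.108 in the authors' deposited table.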

How the data were processed

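RNA-seq read counts of 6 Huh7 libraries were used, 3 with CTSV shRNA and 3 with control shRNA. The counts per gene are raw whole numbers made and deposited by the authors. HISAT2, StringTie, SAMtools and hg38 are named in the submitters' processing notes, without versions. Which tool counted the reads, on which annotation and with which strand setting was not given in the sources used here, so antisense reads may be included. The deposited log2 fold changes and p-values are the authors' own, with the log2 ratio formed as control over knockdown, opposite to the direction used here.

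Of 28915 entries, 1521 copies of repeated names, all with identical values, were removed, which left 27394 names. Library totals of 16258803 to 18106207 counts and a biological coefficient of variation of 6.87% set the precision. Replicates of a group differed by more than sampling noise (chi-square per degree of freedom 3.51 to 5.10). The test was edgeR 4.0.16 in R 4.3.3 (quasi-likelihood, TMM, filterByExpr by group, Benjamini-Hochberg adjustment over 15968 genes), with fold changes as CTSV shRNA over control shRNA. It was tested on simulated data. Normalised CPM use the TMM library sizes. Exon lengths are unions of GENCODE v29 exons, where 27 of the 31 members have the same start and end as in the table. Transcripts were compared with blastn, and promoter windows are from RefSeq, where 24 members matched.

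Of 32 names that match the rule, 1 is not reported here. The members, enzyme classes and gene lists were chosen with earlier results of these data known. Every tested member is described, with up to 4 called genes of smallest adjusted p from each pathway list, POR and CTSV. NR1I3, AHR, PPOX, ALAD, HMOX1, HMOX2, BLVRA, the markers named and the overlapping METTL1 and KLKB1 were added after their values were seen. Classes follow the main known substrate of each enzyme. Alternatives were RLE size factors, no low-count filter, a mean of at least 1 CPM, the replicate number as a block, a loess offset (span 0.5) for exon length, all deposited entries, DESeq2 1.42.0 and leaving out each library.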

Additional observations from a re-analysis of the deposited data

How the results depend on the processing

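All 14 called members kept their direction under the 13 alternatives, and 5 of them were called under each one that was run: CYP3A5, CYP4V2 and CYP4F12 as rises and CYP1A1 and CYP20A1 as falls. The other 9 lost their call in at least 1 of the fits that left out a library. Calls over all genes were also fewer in such fits, 5486 to 5913 against 6433 with all libraries. Dependence on a single library therefore cannot be told apart from the smaller number of libraries. Leaving out 1 library at a time gave 5 to 8 rises and 3 to 4 falls among members, against 9 and 5. Among xenobiotic enzymes it gave 1 to 4 rises and 1 to 3 falls, and among sterol and bile acid enzymes 0 to 1 rises and 0 to 1 falls. It gave 2 to 4 falls among redox partners, 1 to 2 rises among haem genes and 0 to 1 falls among other bile acid enzymes. DESeq2 gave 3 falls among members, 0 among sterol enzymes, 1 among other bile acid enzymes and 1 rise among haem genes. With a mean of at least 1 CPM, 1 sterol enzyme rose, CYP19A1. The length offset gave 1 fall among vitamin enzymes, 2 among other bile acid enzymes, 1 rise among haem genes and 3 among transcription factors. No filter on low counts gave 3 rises among xenobiotic enzymes. That setting and all deposited entries each gave 1 rise among haem genes and 1 fall among other bile acid enzymes. The cause was not tested. CYP27A1, not called, changed sign with the length offset (-0.013), without control replicate 3 (-0.041) and without knockdown replicate 1 (-0.081), over a range of -0.081 to 0.132 when 1 library was left out. CYP2S1 changed sign without control replicate 1, over a range of -0.030 to 0.366.

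The replicate block gave 9 rises and 5 falls among members and 1 fall among other bile acid enzymes. Same-numbered libraries shared only a number: their deviations from the group means correlated at -0.012 to 0.021, and those of other pairs at -0.033 to 0.034. The 6 members below the filter had 4 to 34 counts over 6 libraries and were not tested.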

Other observations

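The P450 enzymes PTGIS and TBXAS1, whose gene names lack the CYP form, serve eicosanoid synthesis. PTGIS, the prostacyclin synthase, was at 6.79 ± 0.660 CPM in knockdown libraries and 1.99 ± 0.267 CPM in control libraries (SD, n = 3 each). The log2 fold change was 1.77 (SE 0.238; by edgeR, adjusted p = 1.5e-07), and it was called under all 13 alternatives. TBXAS1, the thromboxane synthase, did not pass the filter on low counts, at 0.648 ± 0.286 CPM in knockdown and 0.522 ± 0.252 CPM in control libraries.

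KLKB1, the plasma prekallikrein gene, shares 201 exonic bases with CYP4V2 on the same strand and rose as well, by 1.06 on the log2 scale, at 6.72 ± 0.764 CPM in knockdown and 3.22 ± 0.614 CPM in control libraries (SD, n = 3 each). Its level was below that of CYP4V2 in every library, and the sources used here do not say how reads of the shared bases were assigned.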
